A study of Mus musculus with 6 samples.

Results

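The genes described here are Mbp, Pmp22, S100b, Sox10, Ngfr and Prx, a set of 6 genes of Schwann cells and of the myelin sheath, found by gene name among the 20015 genes of a table of estimated counts from mouse quadriceps. Of the 6, 5 have a row in that table. S100b, a calcium-binding protein used as a marker of Schwann cells, has none and is not analysed here. The table holds only genes that reached 10 counts or more in at least 1 library.

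Schwann cells are the glia of peripheral nerve, and in muscle they accompany the motor and sensory axons and cap the nerve terminals at neuromuscular junctions. Myelinating Schwann cells wrap an axon in many layers of membrane, which lets the nerve impulse jump from node to node. Sox10 is the transcription factor that holds the Schwann cell lineage and, together with Egr2, switches on myelin genes. In damaged nerve, Schwann cells are known to lower their myelin genes and to raise Ngfr, the p75 neurotrophin receptor.

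Total RNA was sequenced from quadriceps, the muscle group that extends the knee, in 2 groups of 3 libraries lettered A, B and C. The injured group comes from limbs with a torn anterior cruciate ligament, which steadies the knee, and the non-injured group from quadriceps without that injury. The labels give Mus musculus as the organism and no strain, age, sex or time after injury, and nothing in them ties a library to an animal. P-values therefore cover only the spread among the 6 libraries, part or all of which may be technical. Human tissue is named in the design text and in the RNA protocol, but 96.6% of the rows lie where the mouse gene of the same name lies on the mm10 build, and positions below are on mm10. The table's name calls the RNA myonuclear, that is, from nuclei of muscle fibres, while the protocol names no isolation of nuclei, so how many nerve cells the preparations held cannot be told from the labels.

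Libraries held 6.45 to 8.75 M counts, and genes of muscle fibres were abundant in them. Together, 10 fibre genes such as Ttn, Myh4 and Ckm took 170132.4 to 177886.4 CPM (counts per M counts of the library) in injured libraries and 183984.8 to 192815.8 CPM in non-injured ones. Most of this was Ttn, with 137000, 133000 and 132000 CPM in injured and 138000, 146000 and 146000 CPM in non-injured libraries A, B and C. The 5 Schwann cell and myelin genes together took 21.9, 25.8 and 24.2 CPM in injured libraries A, B and C, against 18.0, 19.4 and 12.3 CPM in non-injured libraries A, B and C. Every injured library lay above every non-injured one in this sum, and non-injured C was the lowest. Taken singly, 11.9% of all genes tested had every injured library above every non-injured one. Of the genes in the sum, Mbp alone did. Of the 10 markers chosen to check for Schwann cells, 8 have a row, among them the 5 genes of the set and Egr2, and S100b and Cdh19 have none. Transcripts of these markers were thus present at a low level, and the values of the 5 genes rest on 2 to 67 counts in a library.

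All 5 genes passed the filter on low counts. None of them passed the test between injured and non-injured quadriceps (0 of 5, edgeR quasi-likelihood test, adjusted p under 0.05), in a comparison that called 0.746% of the 16095 genes tested, 0.715% as higher. Mbp had the smallest p and was the 1 gene of the 5 whose groups did not overlap, while 21.5% of all genes tested had groups that did not overlap, 11.9% with the injured libraries higher. It was also the 1 gene with an unadjusted p under 0.05, which 15.4% of all genes had. By DESeq2 and by limma-voom, 0 of the 5 passed as well. The log2 fold changes of Ngfr, Mbp, Sox10 and Prx were positive and that of Pmp22 was near 0. Their median was 0.80, against 0.00 over all genes tested and 0.20 over the 6581 genes with a mean of 10 to 50 counts, the range in which all 5 lie. A change in the number of cells of a type and a change in RNA per cell cannot be told apart in these values.

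**Figure D1:**
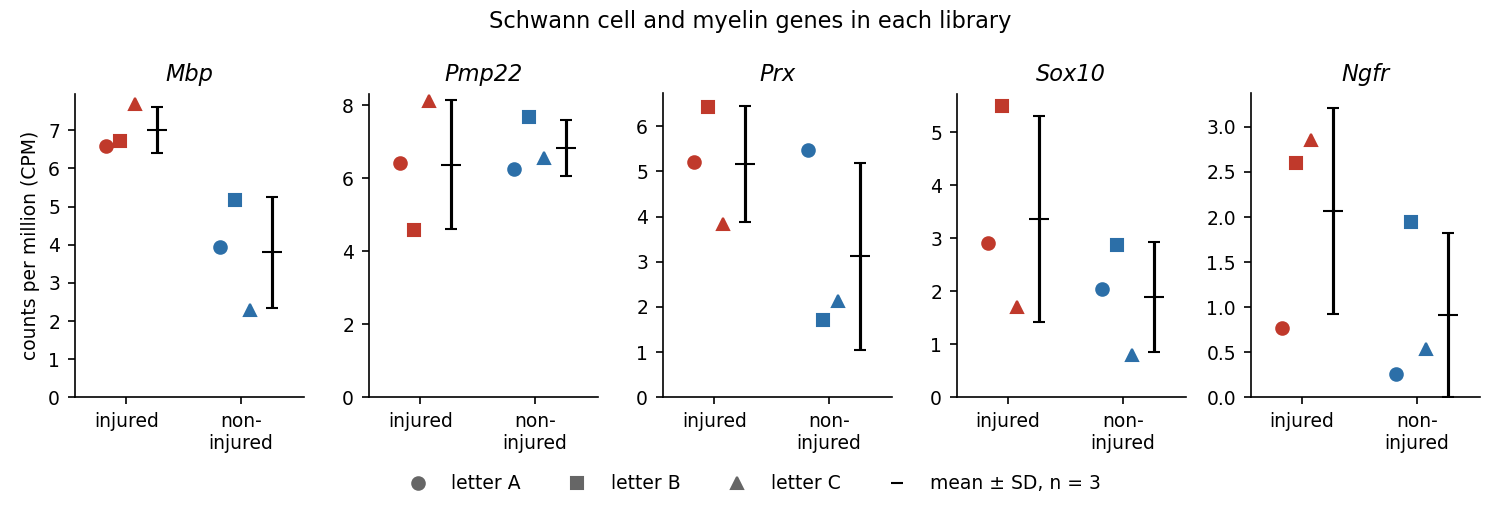
CPM of Mbp, Pmp22, Prx, Sox10 and Ngfr in each library (vertical axes, from 0), with injured libraries in red to the left of non-injured ones in blue, the marker shape giving the letter and the black bar the mean ± SD of 3 libraries. The groups do not overlap for Mbp (injured 6.58 to 7.69 CPM, non-injured 2.28 to 5.17 CPM) and overlap for the other genes.

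Mbp encodes myelin basic protein, which holds the inner faces of the myelin membrane together. The gene (ENSMUSG00000041607) lies on chromosome 18 from 82475146 to 82585637 on the plus strand. Its longer transcripts, known as Golli, are also made outside myelin, in T cells among others. Mbp had 6.58, 6.72 and 7.69 CPM in injured libraries A, B and C, against 3.95, 5.17 and 2.28 CPM in non-injured libraries A, B and C. The injured libraries lay close together and all above the non-injured ones, among which C was the lowest at 17 counts (exact Poisson 95% interval 9.90 to 27.2 counts, which covers counting error only). The log2 fold change was 0.87 ± 0.32 (SE), with a 95% interval from 0.18 to 1.56 and an adjusted p of 0.222. Of all genes tested, 8.34% had a larger positive change, as did 15.8% of those with a mean of 10 to 50 counts. Without non-injured C the log2 fold change was 0.59 (adjusted p 0.486). Counts per gene do not part Golli from myelin transcripts, and the pseudogene Rpl21-ps8, which has no row, lies on the opposite strand within Mbp. Of 8 T cell markers, 6 have no row, among them Cd3d, Cd3g and Cd4. Cd3e, a chain of the T cell receptor complex, had 2.45, 1.38 and 1.42 CPM in injured libraries, against 4.97, 1.15 and 2.14 CPM in non-injured ones. The part of T cells in the Mbp values was not tested.

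Pmp22 encodes peripheral myelin protein 22, a membrane protein of compact myelin whose gene dosage must be kept, since an extra copy in humans causes the neuropathy Charcot-Marie-Tooth disease type 1A. It is also made by fibroblasts and other cells. The gene (ENSMUSG00000018217) lies on chromosome 11 from 63128982 to 63159547 on the plus strand. Pmp22 had 6.43, 4.58 and 8.12 CPM in injured libraries A, B and C, against 6.25, 7.69 and 6.56 CPM in non-injured libraries A, B and C. Both the lowest and the highest value were in injured libraries, so the groups overlapped fully. The log2 fold change was -0.10 ± 0.27 (SE) at an adjusted p of 0.903, and its 95% interval from -0.69 to 0.49 leaves room for a fold between 0.62 and 1.41. Without injured B the sign turned, to a log2 fold change of 0.09.

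Mbp and Pmp22 can be set against each other within a library, where the scaling between libraries plays no part. The ratio of Mbp to Pmp22 counts was 1.02, 1.47 and 0.947 in injured libraries A, B and C, against 0.633, 0.672 and 0.347 in non-injured libraries A, B and C. All injured ratios were above all non-injured ones, a difference of 1.09 on the log2 scale with a two-sided exact permutation p of 0.1, the smallest that 3 libraries against 3 allow (adjusted p 1.0 over the 10 pairs of the 5 genes). It was the 1 pair of the 10 whose ratios did not overlap between groups, and it was singled out after the values were seen.

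Prx encodes periaxin, a scaffold protein that links the outer membrane of the myelinating Schwann cell to its basal lamina through dystrophin-related protein 2 and dystroglycan. The gene (ENSMUSG00000053198) lies on chromosome 7 from 27499324 to 27520214 on the plus strand in the annotation used for exon lengths. The deposited values give 27497388 as its start. Prx had 5.21, 6.42 and 3.84 CPM in injured libraries A, B and C, against 5.48, 1.72 and 2.14 CPM in non-injured libraries A, B and C. Non-injured A was as high as the injured libraries, and the other two non-injured libraries were below all of them. The log2 fold change was 0.73 ± 0.43 (SE), with a 95% interval from -0.21 to 1.66 and an adjusted p of 0.457. Within letters, the log2 ratio of injured to non-injured was -0.08 for A, 1.90 for B and 0.84 for C. With both letter A libraries left out, the log2 fold change was 1.40 (adjusted p 0.133), and without non-injured A alone it was 1.39 (adjusted p 0.15), while without non-injured B it was 0.41 (adjusted p 0.718). An antisense gene, Gm15541, overlaps Prx, and since the strand setting of the counting is not given in the sources used here, reads of the pair may not be told apart. Gm15541 had 0.766, 2.45 and 1.71 CPM in injured libraries, against 0.638, 0.804 and 0.937 CPM in non-injured ones.

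Sox10, the transcription factor of the lineage, is made in muscle mainly by Schwann cells. The gene (ENSMUSG00000033006) lies on chromosome 15 from 79154908 to 79165240 on the minus strand. Sox10 had 2.91, 5.50 and 1.71 CPM in injured libraries A, B and C, against 2.04, 2.87 and 0.803 CPM in non-injured libraries A, B and C. In both groups B was the highest and C the lowest, and in each letter the injured library was the higher, by 0.51, 0.94 and 1.09 on the log2 scale for A, B and C. The means differed by less than the larger spread, at 3.37 ± 1.94 CPM in injured and 1.90 ± 1.04 CPM in non-injured libraries (SD, n = 3 each). The log2 fold change was 0.80 ± 0.53 (SE), with a 95% interval from -0.35 to 1.95 and an adjusted p of 0.513. With the letter as a block in the fit it was 0.82 (adjusted p 0.274). Injured B held 36 of the Sox10 counts, and without it the log2 fold change was 0.26 (adjusted p 0.918). Without non-injured C, which held 6 counts (exact Poisson 95% interval 2.20 to 13.1), it was 0.42 (adjusted p 0.799).

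Ngfr encodes the p75 neurotrophin receptor, which marks immature, non-myelinating and denervated Schwann cells and is also present on some pericytes and fibroblast-like cells. The gene (ENSMUSG00000000120) lies on chromosome 11 from 95568818 to 95587735 on the minus strand. Ngfr had 0.766, 2.60 and 2.85 CPM in injured libraries A, B and C, against 0.255, 1.95 and 0.535 CPM in non-injured libraries A, B and C. Letter A was the lowest in both groups, and non-injured B was nearly as high as injured B and C. The value of non-injured A rests on 2 counts (exact Poisson 95% interval 0.242 to 7.22), and 3 counts correspond to 0.383 CPM in that library. The log2 fold change was 1.14 ± 0.70 (SE), with a 95% interval from -0.37 to 2.65 and an adjusted p of 0.474, the widest interval of the 5 genes. Leaving out non-injured B gave 2.33 (adjusted p 0.251), and leaving out non-injured A gave 0.69 (adjusted p 0.7).

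**Figure D2:**
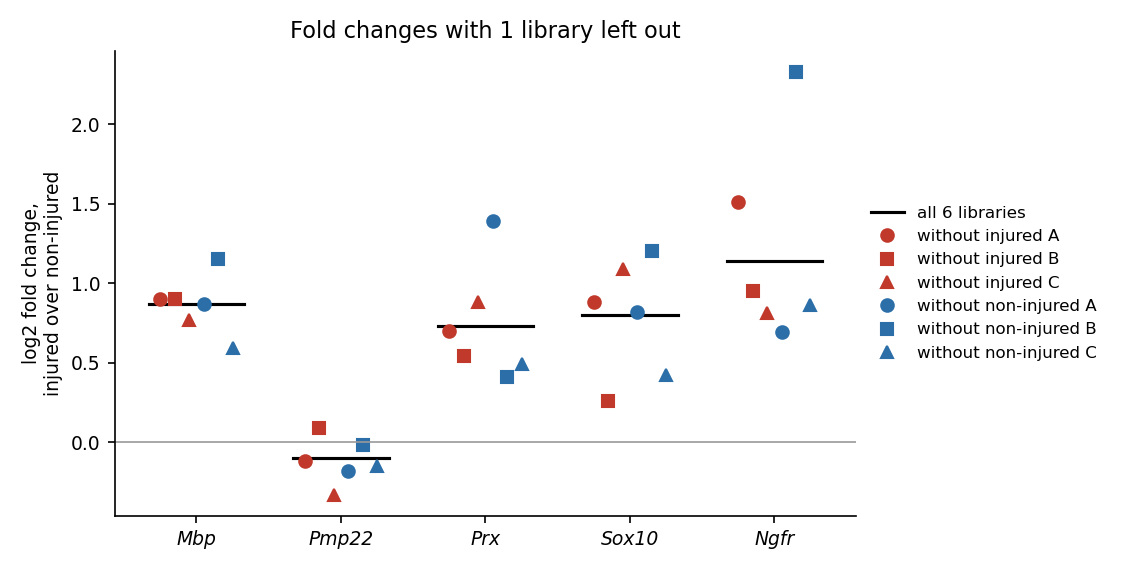
Log2 fold change, injured over non-injured (vertical axis), of the 5 genes with all 6 libraries (black lines) and with 1 library left out (red for injured, blue for non-injured, the shape giving the letter). Mbp stays between 0.59 and 1.15, while Ngfr runs from 0.69 to 2.33 and Pmp22 lies at both sides of 0.

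CPM were also set per length of annotated exons, joined over all transcripts of a gene. On this scale Pmp22 had the highest value of the 5, with 2.71 CPM per kilobase in injured and 2.90 in non-injured libraries. It led in all 6 libraries, the nearest being injured B with 1.95 CPM per kilobase of Pmp22 and 1.80 of Sox10. Sox10, Prx and Mbp followed with group means of 1.10, 0.925 and 0.827 CPM per kilobase in injured and 0.623, 0.559 and 0.449 in non-injured libraries, and their order changed from library to library. Ngfr was the lowest on average (0.601 in injured and 0.265 in non-injured libraries), but exceeded Sox10 and Prx in injured C and Prx in non-injured B. The joined length was 8.47 kb over 16 transcripts for Mbp, against 2.35 kb over 5 for Pmp22. Before division Mbp exceeded Pmp22 in injured A and B and was below it in the other libraries. The Prx length is from a model that starts at 27499324. Counts per gene do not tell which transcripts were present, so this order holds for these lengths only.

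The other genes of myelin gave no call in the fit of all 6 libraries without the letter block and had log2 fold changes of both signs. Of 23 listed, 15 have a row and 13 could be tested. Of the 13, 0 passed the test (0.746% of all genes did). An unadjusted p under 0.05 was found for 4 higher and 2 lower ones (15.4% of all genes). In injured libraries 3 lay higher and 2 lower without overlap (21.5% of all genes in either direction). The median log2 fold change was 0.06. The 15 genes summed to 351.1 to 419.7 CPM in injured and 498.5 to 527.0 CPM in non-injured libraries, most of it from Dag1. The smallest p belonged to genes that other cells use as well. Litaf, an endosomal protein mutated in an inherited neuropathy of humans, had a log2 fold change of 1.17 (adjusted p 0.0836), the exchange factor Fgd4 of -0.70 (0.0844) and dystroglycan, Dag1, also a main receptor for laminin on muscle fibres, of -0.46 (0.142). With the letter as a block all 3 passed, at adjusted p of 0.0259, 0.0131 and 0.0162, in a fit that called 5.86% of all genes. With that block, 0 of the 5 genes of the set passed, Mbp having the smallest adjusted p, 0.0956.

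Regulators of Schwann cells gave no call either. Of 15 tested, 0 passed (0.746% of all genes did), 4 had an unadjusted p under 0.05 (15.4% of all genes did), all with a positive sign, and the median log2 fold change was 0.33. Nrg1, the axonal growth factor that drives myelination, had 3.22, 3.21 and 2.14 CPM in injured libraries, against 1.02, 0.574 and 1.07 CPM in non-injured ones, without overlap (log2 1.67, adjusted p 0.126, mean of 13 counts). Its receptor chains in Schwann cells are Erbb2 (log2 1.08, adjusted p 0.266) and Erbb3 (-0.03, adjusted p 0.976). Adgrg6, an adhesion receptor needed for myelination, had 1.56 (adjusted p 0.17) and Nab2, a partner of Egr proteins, 1.40 (adjusted p 0.143). Egr2, which acts with Sox10 on myelin genes, had 2.14, 3.36 and 1.57 CPM in injured libraries, against 2.93, 1.26 and 1.34 CPM in non-injured ones, and overlapped (log2 0.35, 95% interval -0.73 to 1.44, adjusted p 0.791). The abundant regulators Tead1, Zeb2 and Yy1, active in many cell types, had log2 fold changes of -0.22, -0.09 and -0.09.

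**Figure D3:**
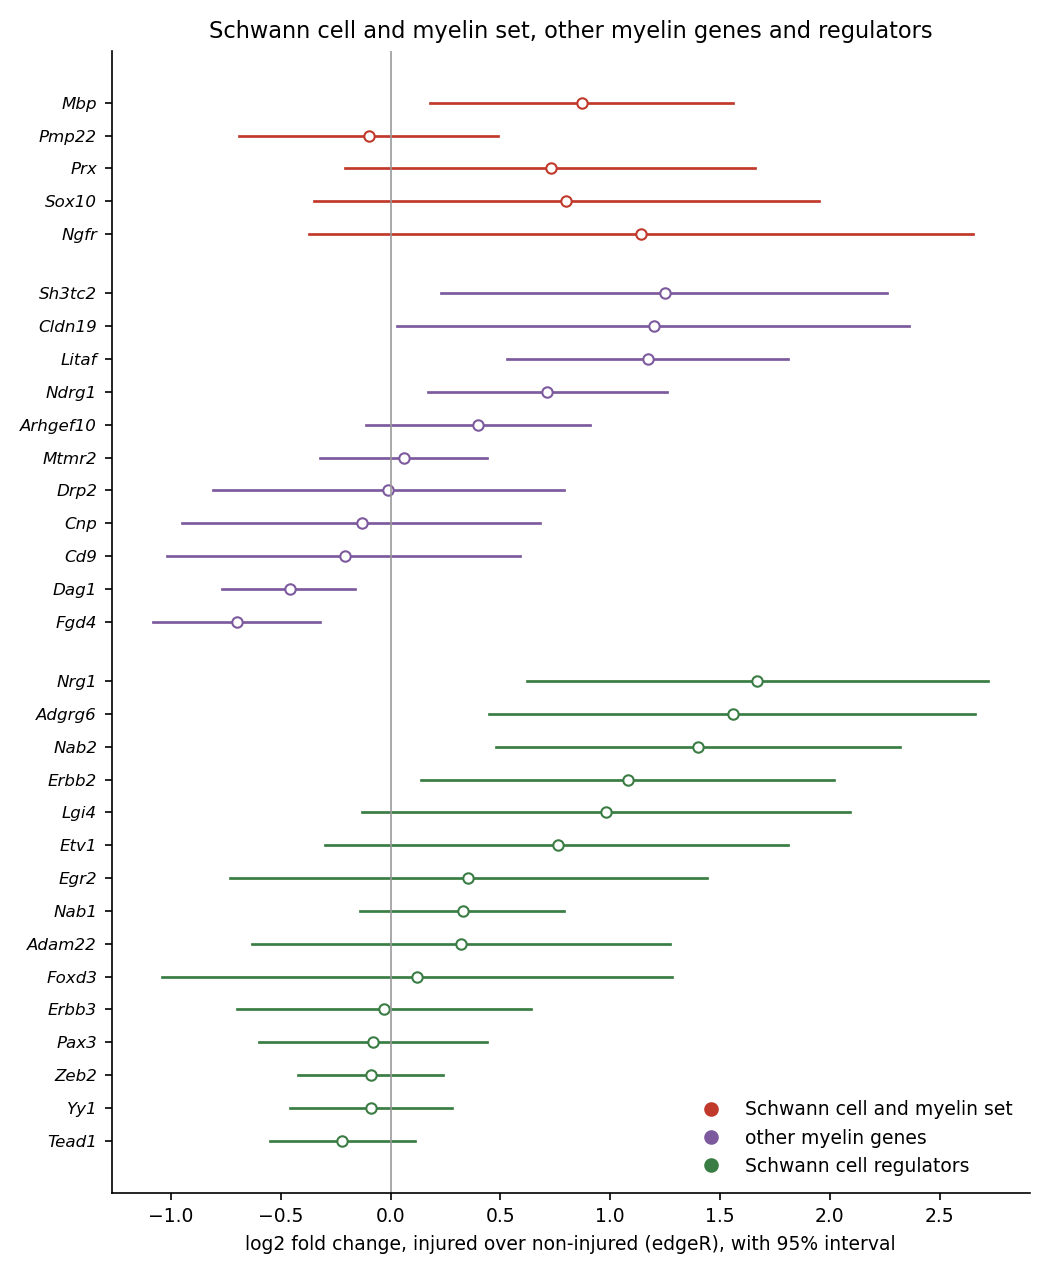
Log2 fold change, injured over non-injured (horizontal axis), with its 95% interval for the 5 genes of the set, 11 of the 13 other myelin genes tested and 15 regulators of Schwann cells. All circles are open because 0 of these genes had an adjusted p under 0.05; intervals are widest for the genes with fewest counts, such as Ngfr (-0.37 to 2.65).

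Genes of immature, non-myelinating and terminal Schwann cells, the states that Ngfr marks, were measured for 11 of 20 listed. Of these 0 passed (0.746% of all genes did), 10 had a positive sign, and the median was 0.63. Among all genes tested, 50.2% had a positive sign at a median of 0.00. Among those with a mean of 10 to 50 counts, 63.3% did at a median of 0.20. The proteoglycan Cspg4, which pericytes also carry, had 0.62 (adjusted p 0.18), and the adhesion protein L1cam 1.16 (adjusted p 0.254). Art3, a surface protein that is abundant in muscle fibres, had -0.54 (adjusted p 0.229; 0.00892 with the letter block). Genes induced in Schwann cells of damaged nerve had a median of 0.40 over 10 tested, with 0 called (0.746% of all genes were). Jun, the factor that drives the repair state and is used by many cell types, had 131, 165 and 188 CPM in injured libraries, against 164, 200 and 208 CPM in non-injured ones (log2 -0.24, adjusted p 0.527). The growth factors Gdnf and Clcf1 had 1.23 and 1.25 (adjusted p 0.257 and 0.185) and Tgfb1, which macrophages also make, 1.08 (adjusted p 0.143).

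Around the receptor Ngfr, 9 of 14 neurotrophins, co-receptors and adaptors were tested, 0 passed (0.746% of all genes did) and the median was 0.11. Neurotrophin 3, Ntf3, has no row. Ntrk3, the receptor of neurotrophin 3, had a log2 fold change of 0.93 (adjusted p 0.18), Sorcs2, a co-receptor of Ngfr, 0.68 (adjusted p 0.317) and Sort1, sortilin, -0.35 (adjusted p 0.453). Axonal and nodal genes, of which the neurofilament Nefl, Prph and Chat have no row, were tested for 6 of 15. Of these 0 passed, and the nodal channel Scn8a had 1.38 (adjusted p 0.237). Genes of the nerve sheath had a median of 0.52 over 10 tested with 0 called (0.746% of all genes were). Among them were the adhesion protein Tenm2 (1.38, adjusted p 0.231) and Gli1 (1.48, adjusted p 0.278).

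The 1 call among the relatives of the set was in the S100 family. S100a10, the partner of annexin A2, rose to 24.0, 12.2 and 15.4 CPM in injured libraries A, B and C, against 5.99, 5.28 and 7.10 CPM in non-injured libraries A, B and C. The groups lay well apart, with a log2 fold change of 1.49 and an SE of 0.26 (adjusted p 0.0266). The call was lost when injured A (adjusted p 0.0584) or injured C (0.0687) was left out, and likewise for non-injured B (0.0889) and non-injured C (0.108). It was 1 of 7 family members tested. S100a4 and S100a6, which fibroblasts and macrophages make, had 2.03 and 0.67 (adjusted p 0.0718 and 0.148; 0.0224 and 0.0443 with the letter block), and S100a1, the form of muscle fibres, 0.07 (adjusted p 0.911). Among relatives of Pmp22 and Sox10, Emp1 had 0.77, Emp2 0.37 and Sox9 0.53, and 0 of the 3 passed (adjusted p 0.17, 0.678 and 0.644). Over all lists together, 81 of 135 other genes of Schwann cells, nerve and these families were tested and 1 was called (1.23%, against 0.746% of all genes). An unadjusted p under 0.05 was found for 26 with a positive and 3 with a negative sign (35.8%, against 15.4% of all genes). DESeq2 called 2 of the 81 and 327 genes in all, and limma-voom 0 of the 81 and 59 in all. The fit with the letter block called 8 of the 81, 5 as higher and 3 as lower, and 5.86% of all genes. Of the 81, 75.3% had a positive sign at a median of 0.49, against 50.2% at a median of 0.00 over all genes tested. Among all genes with a mean of 10 to 50 counts, 63.3% had a positive sign at a median of 0.20. Some of the 81 lie outside that range, such as Dag1 with a mean of 2711 counts. The share with an unadjusted p under 0.05 was not taken over genes of like counts. The lists were chosen with earlier results of these data known, so these shares are no test of nerve genes as a set.

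Among markers of other cells, those of macrophages gave calls in the fit without the letter block. Of 12 macrophage markers tested 4 rose, Lyz2, Itgam, C1qb and Mrc1 (0.715% of all genes did), and 8 passed with the letter block (5.86% of all genes did). The 13 listed summed to 118.8 to 202.3 CPM in injured and 56.5 to 71.7 CPM in non-injured libraries. Fibroblast markers (0 of 10 called) summed to 179.7 to 206.6 CPM in injured and 159.3 to 186.5 CPM in non-injured libraries, and endothelial markers (0 of 9 called) to 128.3 to 144.1 CPM in injured and 113.3 to 127.0 CPM in non-injured libraries. Pericyte markers (0 of 9 called), a list that includes the fibre gene Des, summed to 2175.7 to 2585.2 CPM in injured and 1756.8 to 2405.7 CPM in non-injured libraries. Adipocyte markers (0 of 10 called, 3 lower with the letter block, median log2 -0.82) summed to 514.9 to 672.4 CPM in injured and 526.1 to 744.8 CPM in non-injured libraries, a sum carried by Lpl and Car3 (log2 0.00 and -0.02). Adipoq, Plin1, Cidec, Cfd and Retn, 5 of the 10, were lower in injured libraries without overlap (21.5% of all genes did not overlap, in either direction). Of these, 0 passed without the letter block, and Plin1, Cidec and Cfd passed with it. Satellite cell markers (0 of 6 called, 1 higher with the letter block) summed to 167.6 to 195.8 CPM in injured and 128.3 to 181.5 CPM in non-injured libraries. Itga7 carried that sum and was the 1 call with the block (log2 0.42 without it). Pax7, Myf5, Myod1, Cdh15 and Vcam1 had log2 fold changes of 0.05, -0.68, -0.07, 0.22 and 0.26. The part of these cells in the values of Pmp22, Ngfr, Mbp and the S100 genes was not tested.

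**Figure D4:**
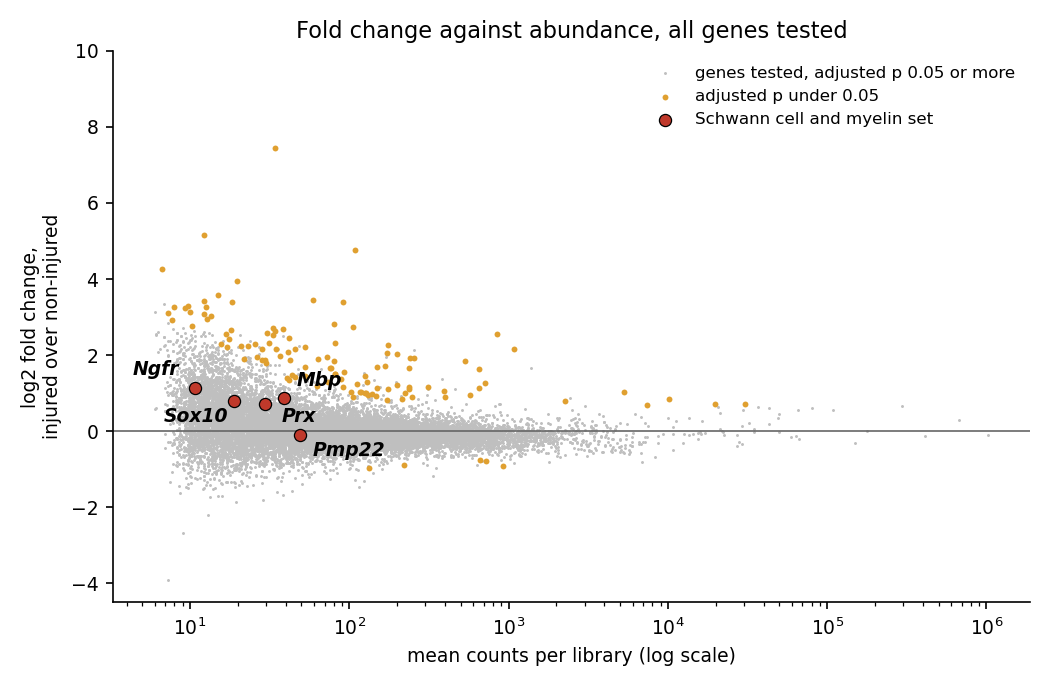
Log2 fold change, injured over non-injured (vertical axis), against the mean count per library (log scale) for the 16095 genes tested; yellow points have an adjusted p under 0.05 and red points are the 5 genes of the set. All 5 lie among genes with a mean of 10 to 50 counts, where the cloud of grey points is wide and its median is 0.20.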

How the data were processed

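RNA of injured and non-injured quadriceps was sequenced in 3 libraries each, and the deposited values are estimated counts for each gene, of which 72.24% to 74.54% are whole numbers in a library. The submitters' processing notes name STAR 2.7.8a, Partek, DESeq2 and the builds mm10 and hg19, with no role for any. How reads were counted, with which annotation and whether by strand, is not given in the sources used here. No column belonged to another sample, and no 2 libraries agreed within sampling noise.

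Counts were rounded, filtered with edgeR's filterByExpr (16095 genes kept, 3920 dropped), given TMM scaling factors and compared by the two-sided quasi-likelihood F test of edgeR 4.0.16 in R 4.3.3, with Benjamini-Hochberg adjustment over all genes. A standard error is the size of the log2 fold change divided by the root of the F statistic. CPM use the scaled library totals. Exon lengths come from GENCODE M21 on mm10 and join the exons of all transcripts of a gene. The fit was tested on simulated data, in which only genes with higher mean counts than Sox10 and Ngfr were given changes.

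Deviations of same-letter libraries from their group means had correlations of 0.316, 0.208 and 0.113 for A, B and C (log2 CPM, prior count 2, genes tested). Between different letters they ran from -0.232 (injured B, non-injured A) to 0.0643 (injured B, non-injured C), so letter C stood little apart. Deviations within a group sum to 0, so these correlations depend on each other. The letter was also fitted as a block. What the letters stand for is not in the labels.

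The genes and the gene lists were chosen with earlier results of these data known. Named from each list were the genes past the test, the 3 with the smallest p and the 3 with the highest mean count, or some of these, besides the markers of Schwann cells; some of these are not reported here. Erbb2 and Erbb3 were named after their values were seen. Genes of like pattern were to be named only for genes with a mean of at least 50 counts, which 0 of the 5 reached. Alternatives were DESeq2 (1.42.0), limma-voom (limma 3.58.1), other scalings and filters, the letter block and leaving out libraries.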

Additional observations from a re-analysis of the deposited data

How the results depend on the processing

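In each alternative that could be run, 0 of the 5 genes passed the test. Mbp, Sox10, Ngfr and Prx kept a positive log2 fold change in all 13 alternatives, with adjusted p from 0.0956 to 0.486, 0.274 to 0.918, 0.228 to 0.731 and 0.133 to 0.74. Pmp22 turned to 0.09 without injured B and was otherwise negative; injured B held its lowest value. With 1 library left out, log2 fold changes ran from 0.59 to 1.15 (Mbp), -0.33 to 0.09 (Pmp22), 0.26 to 1.20 (Sox10), 0.69 to 2.33 (Ngfr) and 0.41 to 1.39 (Prx). A minimum mean of 50 counts leaves none of the 5 in the test (0). Upper quartile scaling moved the median of all genes by 0.05.

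The count of genes called, 120, became 327 with the DESeq2 test, 59 with limma-voom, 943 with the replicate block and 297 without both letter A libraries. With 1 library left out it ran from 20 (without non-injured C) to 129 (without non-injured A), with 85 without injured A, 72 without injured B, 36 without injured C and 48 without non-injured B. Among the other genes of Schwann cells and nerve, the 1 call (S100a10) became 2 with the DESeq2 test (S100a4 added), 0 with limma-voom (adjusted p 0.0502), 8 with the replicate block and 2 without both letter A libraries (Fgd4 added, as lower). With 1 library left out it was 0 or 1. The cause of these moves was not tested. The values of the 5 genes rest on 2 to 67 counts a library.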
